A study of Homo sapiens with 16 samples.

Results

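The regions described here are sites of open chromatin that lost their peak call after ACBI-1 in both DND41 and MOLT4 cells. Peaks of all 16 ATAC-seq lists on chromosomes 1 to 22 and X that shared at least 1 base were merged, which gave 131357 regions. A region was counted as lost when, in each line, it had a peak in at least 3 of 4 DMSO libraries and in at most 1 of 4 ACBI-1 libraries. The members were thus chosen by the presence of peaks in these libraries, and 1901 regions met the rule. They made up 1.45% of all regions and 8.38% of the 22685 regions that had a peak in at least 3 of 4 DMSO libraries of each line, called DMSO-open below. The other 20784 DMSO-open regions serve as the comparison.

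ATAC-seq cuts open DNA with the Tn5 transposase, so a peak marks a stretch where nucleosomes leave the DNA reachable. DND41 and MOLT4 are long-established cultures derived from human T-cell leukaemia (T-ALL), each a single line grown in RPMI-1640 medium with 10% serum. Each line was given 100 nM ACBI-1 or the vehicle DMSO, for 3 h or 24 h, and each of the 8 groups had 2 libraries. Groups follow the sample titles, since the cell line field named the other line in 8 of 16 samples. In all 16 lists the code inside the peak names matched the title, and in all 16 the library sharing most regions was of the titled line. The labels do not say whether a group's libraries are from different cultures, so the spread that the p-values rest on may be technical.

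ACBI-1 is a PROTAC, a bifunctional molecule that brings a ubiquitin ligase to its targets, here SMARCA2 and SMARCA4, the ATPases of SWI/SNF, together with its subunit PBRM1. SWI/SNF complexes use ATP to slide and evict nucleosomes, and many enhancers need them continuously to stay accessible, whereas many promoters of broadly used genes depend on them less. T-cell leukaemias rely on enhancers bound by lineage transcription factors, and both lines share part of that repertoire. The comparison addresses how accessibility differs between treated and vehicle cells.

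Each list held the positions of peaks only, between 26145 and 46712 per library. ACBI-1 lists had 30710 ± 2522 peaks and DMSO lists 42551 ± 3102 (SD, n = 8 each). Read depth is unknown, so a missing peak can also be a site too weak to be called. Fewer open cells and weaker opening per cell cannot be told apart in these bulk samples.

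The loss that chose the regions was deep at 24 h and less complete at 3 h. In DND41 the 1901 regions had a peak in 8.995% and 28.4% with ACBI-1 at 3 h and in 3.21% and 2.16% with ACBI-1 at 24 h. With DMSO the DND41 shares were 98.6% and 86.4% at 3 h and 90.6% and 85.7% at 24 h. In MOLT4 the shares were 14.7% and 21.5% with ACBI-1 at 3 h and 4.16% and 2.74% with ACBI-1 at 24 h. With DMSO the MOLT4 shares were 95.1% and 94.8% at 3 h and 86.5% and 84.3% at 24 h. The gap between the arms was set by the rule and is given as a description with no test. The other DMSO-open regions had a peak in 84.4 ± 4.72% with ACBI-1 and in 97.9 ± 1.02% with DMSO (SD, n = 8 each).

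**Figure D1:**
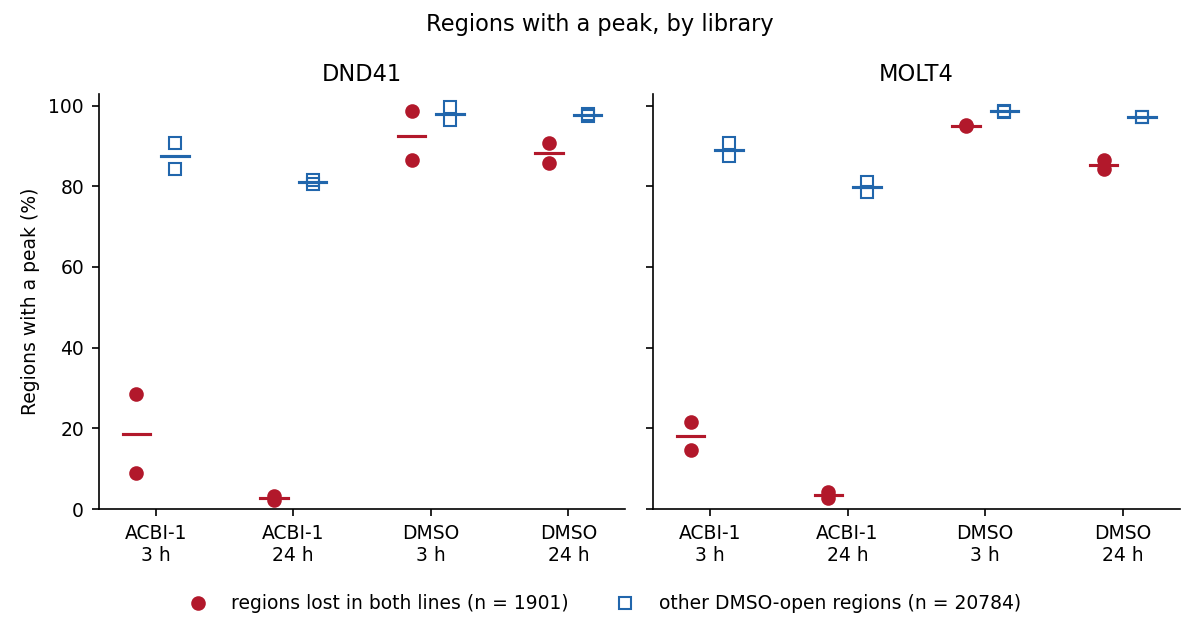
Percent of regions with a peak in each library, for regions lost in both lines (filled circles) and other DMSO-open regions (open squares), by line, treatment and time; each point is 1 library and each bar the mean of 2. The lost regions lie between 2.16% and 28.4% with ACBI-1, with all 4 libraries of 24 h at or below 4.16%.

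The lost regions ranged from complete to borderline absence. At 209 of them every DMSO library and none with ACBI-1 had a peak, and 666 of the 1901 had no ACBI-1 peak in any library. A single remaining ACBI-1 peak was found at 838 regions and 2 at 397. With DMSO, 747 regions had a peak in all 8 libraries, 827 in 7 and 327 in 6. The rule with the arms exchanged was met by 23 regions.

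For comparison with the whole table, every region was tested for ACBI-1 against DMSO with an exact permutation test that exchanged labels within line and time. Regions whose number of peaks could give a low enough p were 8082, and 27.9% of them were called lower with ACBI-1 after Benjamini-Hochberg adjustment at 0.05 (exact permutation test). Of the 1901 lost regions, 1884 could be tested and 1548 were called, a count that follows from the rule and from which nothing is read. Over all regions 2251 were called lower with ACBI-1 and 9 higher. The complete losses named below had an adjusted p of 0.0442 (exact permutation test), close to the threshold of 0.05. Without 1 library fewer exchanges are possible and the smallest reachable p is higher, so fewer calls follow in part from the test itself. The calls lower numbered 0 without DND41 ACBI-1 3 h replicate 1, either DND41 ACBI-1 24 h library, either MOLT4 ACBI-1 24 h library, DND41 DMSO 3 h replicate 1 or MOLT4 DMSO 3 h replicate 2, and at most 1110 without any other library.

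The regions named next are the broadest of the 209 with a peak in every DMSO library and none with ACBI-1. They are not the broadest without an ACBI-1 peak. The region chr1:1148200-1149358, with 7 DMSO peaks and 0 ACBI-1 peaks, had a mean DMSO width percentile of 87.6, against 66.7 for the first one below. The broadest among the 209 complete losses, by mean width percentile within the DMSO lists, was chr9:137295536-137296237 (hg19). Its peaks measured 545, 379, 485 and 547 bp in the DND41 DMSO libraries and 552, 354, 658 and 533 bp in the MOLT4 DMSO libraries, in each line with the 3 h libraries first. None of the 8 ACBI-1 libraries had a peak there, and the DMSO widths of the lines overlapped fully. At chr11:7597066-7597782 the widths were 378, 190, 441 and 470 bp in DND41 with DMSO and 544, 528, 625 and 704 bp in MOLT4 with DMSO. Every MOLT4 peak there was broader than every DND41 peak, and all were absent with ACBI-1. The region chr8:97349974-97350701 had the same order, with 393, 272, 297 and 326 bp in DND41 and 704, 612, 639 and 559 bp in MOLT4 with DMSO.

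At other broad regions the widths of the lines overlapped. At chr17:80259758-80260596 the DMSO peaks were 446 and 285 bp at 3 h and 812 and 726 bp at 24 h in DND41. In MOLT4 they were 337 and 240 bp at 3 h and 571 and 559 bp at 24 h, so that in both lines the 24 h libraries had the broader peaks. At chr1:39442924-39443832 a DND41 library of 3 h had a peak of 157 bp and a MOLT4 library of 24 h one of 845 bp, with a mean of 520 ± 246 bp (SD, n = 8). The peaks at chr11:69064509-69065681 ran from 172 bp to 1010 bp with a median of 462 bp. The lowest values were in MOLT4 at 3 h and the highest in DND41 at 24 h. The narrowest spread among the 10 was at chr2:97204233-97205024, with 459 ± 97.3 bp (SD, n = 8).

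The remaining 3 of the 10 had intermediate spreads. Peaks at chr21:46506804-46507734 averaged 472 ± 156 bp, and the mean midpoints of the lines lay 270.1 bp apart, farther than at any other of the 10. Those at chr5:169854204-169855190 averaged 499 ± 210 bp and those at chr12:114300436-114301181 averaged 461 ± 144 bp (SD, n = 8 for each region). In these 2 regions the midpoints of the lines lay 37.1 and 18.4 bp apart.

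**Figure D2:**
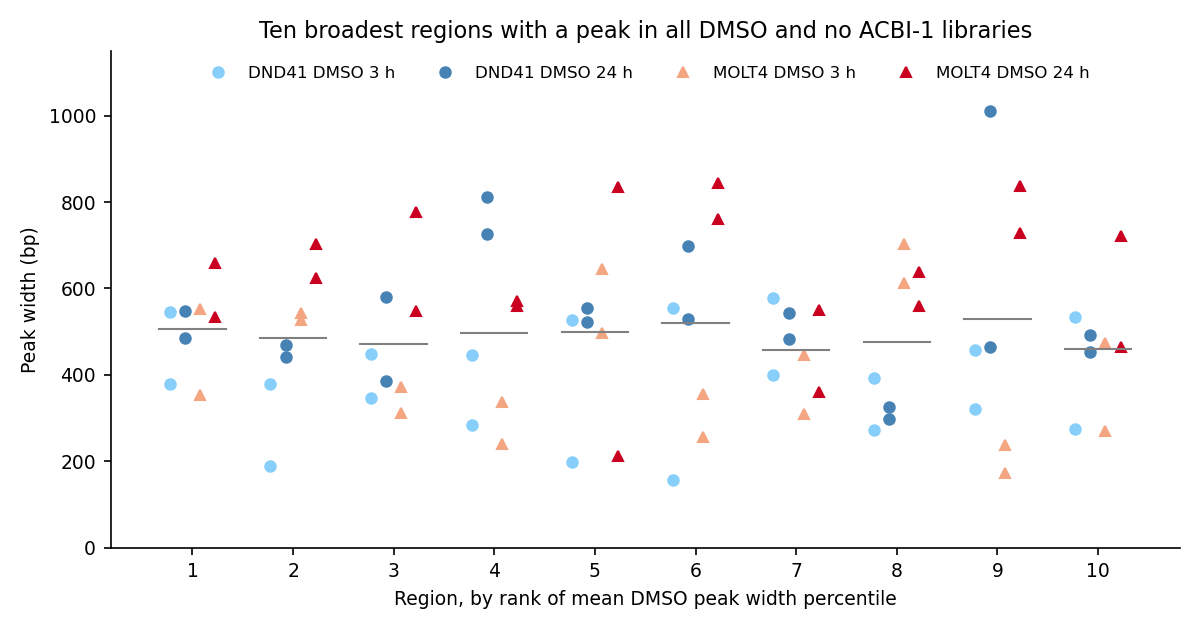
Width in bp of the DMSO peak in each library at the 10 broadest of the 209 complete losses, ranked by mean width percentile; circles are DND41, triangles MOLT4, pale symbols 3 h, dark symbols 24 h and grey bars the mean of 8. Widths at a single region span up to 172 to 1010 bp.

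Regions on either side of the threshold had nearly the same typical breadth, with a median mean DMSO width percentile of 38.2 for the 39 regions just inside and 38.8 for the 3130 just outside. Of the 39 regions that only just met the rule, with 6 DMSO and 2 ACBI-1 peaks, the broadest was chr9:139446238-139447322. Its peaks measured 213 bp in DND41 and 167 bp in MOLT4 with ACBI-1, both at 3 h, against 371, 558 and 879 bp in DND41 and 213, 1012 and 883 bp in MOLT4 with DMSO. The next were chr6:30736746-30737567, with ACBI-1 peaks of 168 and 280 bp and a DMSO mean of 494 ± 172 bp, and chrX:82063175-82063807, with ACBI-1 peaks of 447 and 225 bp and a DMSO mean of 413 ± 111 bp (SD, n = 6 for each DMSO mean). Every ACBI-1 peak at these 3 regions was in a 3 h library.

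Just outside the rule, 3130 regions met it in a single line and missed it by 1 library in the other. The broadest was chr2:103419566-103420502, with a DMSO peak of 816 ± 75.2 bp (SD, n = 8). With ACBI-1 it kept a peak of 601 bp in a DND41 library and peaks of 230 and 542 bp in both MOLT4 libraries of 3 h. The next were chr17:71587460-71588484 and chrX:101594079-101594986, whose DMSO widths averaged 799 ± 140 bp and 787 ± 84.9 bp (SD over 8 libraries at each). Both also had ACBI-1 peaks in 3 libraries, all of 3 h, and none at 24 h.

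The rule pooled 3 h and 24 h, so it capped the peaks of both times together, and the values by time are given as a description with no test. Of the 1632 ACBI-1 peaks that remained at lost regions, 233 were in 24 h libraries and 1399 (85.7%) in 3 h libraries. All 4 ACBI-1 libraries of 24 h lay below all 4 of 3 h, at 3.06 ± 0.845% for 24 h and 18.4 ± 8.41% for 3 h (SD, n = 4 each), a difference of -15.3 percentage points. In DND41 the 2 libraries of 3 h were far apart, and without the higher one the mean difference was -10.5 points. No ACBI-1 peak was found at 24 h for 88.6% of the lost regions and none at 3 h for 42.3%. The order of the times was not particular to the lost regions. With ACBI-1 the other DMSO-open regions had a peak in 80.5 ± 1.31% at 24 h (78.6% to 81.6%) and in 88.3 ± 3.06% at 3 h (84.3% to 90.7%, SD, n = 4 each).

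ACBI-1 lists of 24 h held 31970 ± 2264 peaks, against 29451 ± 2343 at 3 h (SD, n = 4 each). The part of list length in the difference between times was not tested. DMSO libraries also had fewer of the lost regions at 24 h, with 86.8 ± 2.73% against 93.7 ± 5.16% at 3 h (SD, n = 4 each). The difference between times with ACBI-1 minus that with DMSO was -8.38 points. With lists cut to the same length of 26145 widest peaks, 430 regions met the rule and this value was -23.1 points. Peak names carried the tag p04 at 3 h and p03 at 24 h, so a setting that the tag may stand for and the time of treatment cannot be told apart.

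Most peaks that remained after ACBI-1 were narrower than the mean DMSO width at the same region and line, taken over 3 h and 24 h together. The median ratio to that mean was 0.725, and 1332 of 1632 (81.6%) were narrower than it. Most remaining peaks were from 3 h, when DMSO peaks were narrower too. The library medians at lost regions were 215 ± 32.1 bp with ACBI-1 and 261 ± 33.2 bp with DMSO at 3 h. At 24 h they were 244 ± 15.4 bp with ACBI-1 and 318 ± 8.11 bp with DMSO (SD, n = 4 each). The midpoints of the remaining peaks lay a median of 44.6 bp from the DMSO midpoint of their line. At 3 h, 711 lost regions had a remaining peak in DND41 and 688 in MOLT4, and 302 had it in both lines, which is 42.5% of the DND41 regions and 43.9% of the MOLT4 regions. Of the lost regions with no 3 h peak in DND41, 32.4% had one in MOLT4.

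Few lost regions, and few of the other DMSO-open regions, had another peak close by. Another peak within 500 bp was present at 2.21 ± 0.367% of lost regions in ACBI-1 libraries and at 3.17 ± 0.550% in DMSO libraries (SD, n = 8 each). Beside the other DMSO-open regions the shares were 2.64 ± 0.324% in ACBI-1 libraries and 3.50 ± 0.352% in DMSO libraries (SD, n = 8 each). The ACBI-1 lists were shorter, as given above, and the part of list length in these shares was not tested.

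The rule asked for the same numbers of peaks in each line, which sets how far the shares of the lines can part, so they are given with no test. With ACBI-1 the share with a peak was 10.8 ± 8.93% in MOLT4 and 10.7 ± 12.2% in DND41, and with DMSO 90.2 ± 5.62% in MOLT4 and 90.3 ± 5.90% in DND41 (SD, n = 4 each).

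Lost regions had narrow DMSO peaks. The median width of their DMSO peaks was 290 ± 37.6 bp, at the 39.3 ± 4.77 percentile of each list, against the 73.0 ± 2.22 percentile for the other DMSO-open regions (SD, n = 8 each). Across deciles of DMSO width the share of DMSO-open regions lost in both lines went down from 34.2% in the narrowest to 23.1%, 15.2%, 7.41% and 3.04% in the next 4. It was 0.749% in the sixth decile, and 4 lost regions lay above it, with none in the eighth or the tenth. This is a description with no test, since narrow peaks are also those most easily missed.

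**Figure D3:**
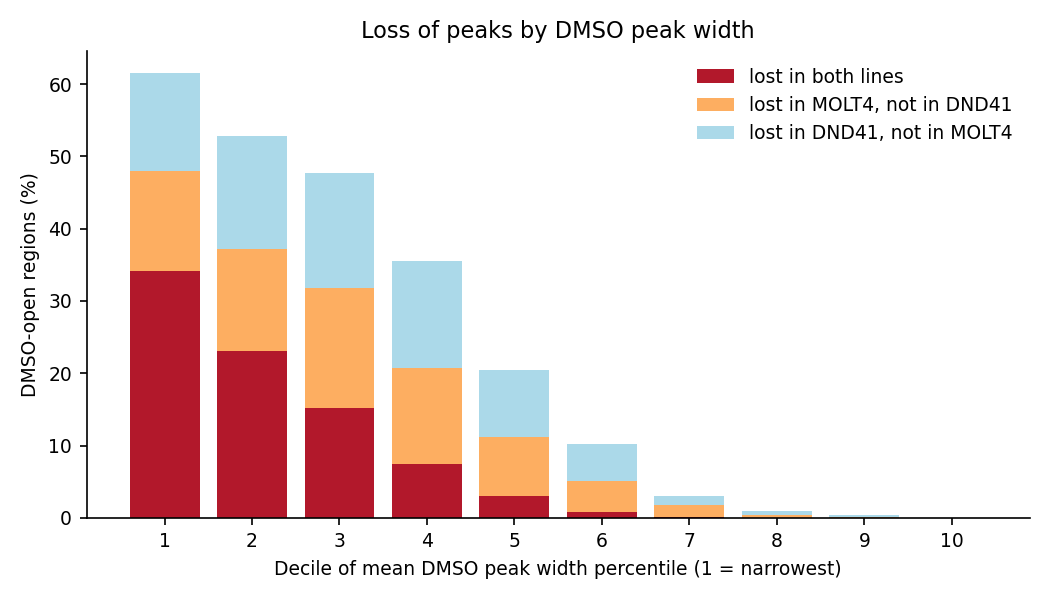
Percent of DMSO-open regions lost in both lines (bottom), in MOLT4 only (middle) and in DND41 only (top), by decile of the mean DMSO peak width percentile. Loss in both lines is 34.2% in the narrowest decile and 3.04% in the fifth, where loss in MOLT4 only is 13.8% and 8.20% and loss in DND41 only 13.5% and 9.17%.

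Loss in a single line depended less steeply on width. Regions lost in DND41 and not in MOLT4 made up 13.5% of the narrowest decile, 14.8% of the fourth and 9.17% of the fifth. Regions lost in MOLT4 and not in DND41 made up 13.8%, 13.4% and 8.20% of the same deciles. In the narrowest decile loss in both lines was more frequent than loss in either line alone, and from the third decile to the ninth it was less frequent than either. Lost regions with no ACBI-1 peak had a median mean width percentile of 33.8, those with 1 such peak 39.9 and those with 2 such peaks 44.2.

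In bp, the DMSO peaks of lost regions were broader in all 4 libraries of 24 h than in all 4 of 3 h. The same held for the other DMSO-open regions, with library medians of 625 to 663 bp at 24 h and 443 to 548 bp at 3 h with DMSO. The median DMSO width of lost regions was 318 ± 8.11 bp at 24 h and 261 ± 33.2 bp at 3 h (SD, n = 4 each). The difference was 56.6 bp. As percentiles within lists the times overlapped, with a difference of 0.726 points. In MOLT4 the DMSO peaks of lost regions lay at the 35.8 ± 1.99 percentile and in DND41 at the 42.7 ± 4.19 percentile (SD, n = 4 each). The difference between the lines was -6.89 points, and in bp -0.125. The DMSO libraries took part in the choice of the regions, and a width exists only where a library had a peak. These differences are therefore given with no test. Across the 1901 regions, the mean width percentile in MOLT4 and that in DND41 had a Spearman rho of 0.361, against 0.838 across the other DMSO-open regions. The regions share libraries and the lost ones cover a narrower range of widths, so these values are descriptions.

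The distance between the peaks of the lines was similar in lost and other regions, within the limit that merging sets. The mean DMSO midpoints of MOLT4 and DND41 lay a median of 28.8 bp apart in lost regions and 29.3 bp apart in the others. They were within 50 bp in 74.5% of lost regions and 70.9% of the others. The merged regions had a median width of 518 bp and ranged from 185 to 1480 bp.

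Whether loss in a line goes with loss in the other was asked with sites and classes chosen outside the libraries scored. Regions that met the rule in a line were compared with regions kept there (a peak in at least 3 of 4 libraries of each arm), and both were scored in the other line. A site entered if the scored line had it in each DMSO library of the time not being scored. Kept regions were weighted to the lost ones over 20 bins of DMSO width, measured in the line where they were classed. Between 3070 and 3781 lost and 16067 and 16727 kept sites entered per library.

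With ACBI-1, regions lost in a line were far more often without a peak in the other line than kept regions of matched width. In DND41 libraries, sites lost in MOLT4 had a peak in 45.5% and 61.1% with ACBI-1 at 3 h and in 26.1% and 24.8% with ACBI-1 at 24 h. Matched sites kept in MOLT4 had one in 74.7% and 84.8% with ACBI-1 at 3 h and in 80.3% and 78.6% with ACBI-1 at 24 h. With DMSO the DND41 libraries had a peak at 96.0%, 86.1%, 83.5% and 80.7% of sites lost in MOLT4 and at 96.8%, 89.1%, 89.1% and 88.9% of the matched kept sites, 3 h libraries first. With ACBI-1 the classes did not overlap. With DMSO the lost class lay below the kept class in all 4 DND41 libraries, by up to -8.13 points.

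MOLT4 libraries gave the same order of the classes with ACBI-1, but not with DMSO. Sites lost in DND41 had a peak in 52.5% and 59.0% with ACBI-1 at 3 h and in 26.9% and 23.2% with ACBI-1 at 24 h. The matched kept sites had one in 78.9% and 84.4% with ACBI-1 at 3 h and in 74.0% and 70.5% with ACBI-1 at 24 h. With DMSO, lost and kept sites were found at nearly the same rate, with 92.0% and 92.1% of lost against 92.1% and 91.5% of kept sites at 3 h, and 80.7% and 79.7% of lost against 78.9% and 80.2% of kept sites at 24 h. In DMSO libraries of MOLT4 the lost minus the kept class lay between -0.486 and 1.75 points, and with ACBI-1 between -47.3 and -25.3 points.

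Over all 4 strata of line and time, the lost class minus the kept class changed by -36.4 percentage points with ACBI-1 relative to DMSO. The two-sided exact permutation p was 0.00154, the smallest that 1296 exchanges allow, and the adjusted p over 13 tests was 0.0100. The direction held in all 16 pairs of an ACBI-1 and a DMSO library of the same line and time. The change was -24.5 points in DND41 and -26.1 in MOLT4 at 3 h, and -47.1 points in DND41 and -47.8 in MOLT4 at 24 h. Set against 3 h, the change at 24 h was -22.2 points, and in MOLT4 minus DND41 -1.14 points. The 3 h and 24 h libraries were scored at different sites, so time and the choice of sites cannot be told apart. Peak height was not analysed here, and matching was on width in the classed line alone.

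**Figure D4:**
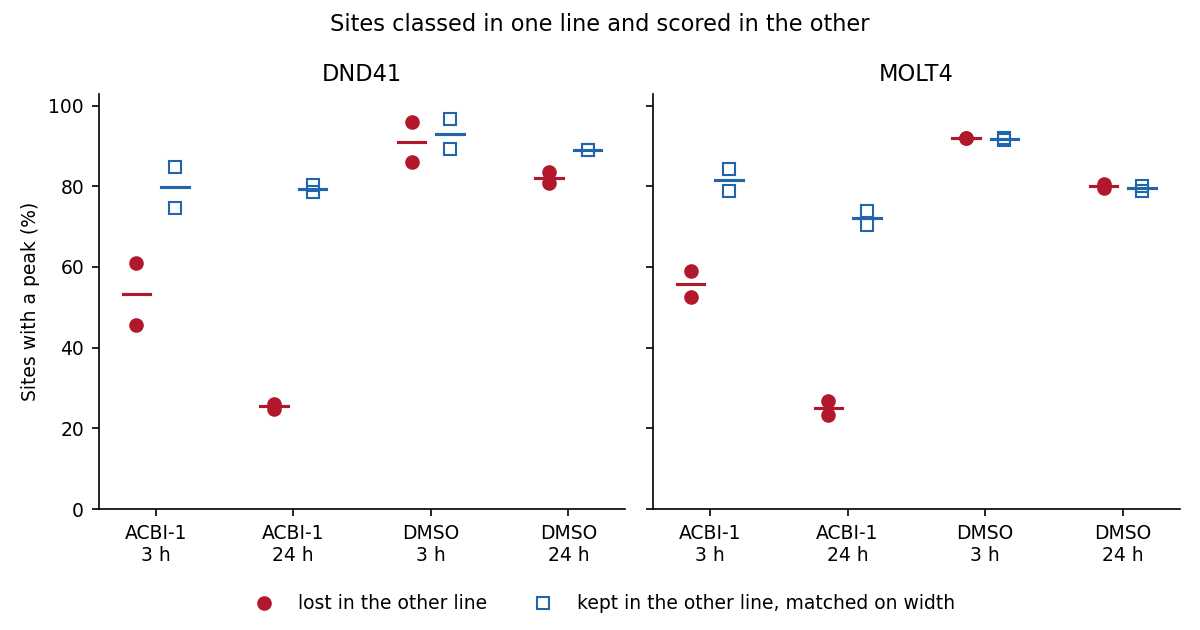
Percent of sites with a peak in each library, for sites lost in the other line (filled circles) and sites kept in the other line and weighted to the same DMSO width (open squares); points are libraries, bars the mean of 2. With ACBI-1 at 24 h the lost class lies at 23.2% to 26.9% and the kept class at 70.5% to 80.3%.

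As plain counts, 8220 regions met the rule in DND41 and 8908 in MOLT4. The 1901 lost in both were 23.1% of the DND41 regions and 21.3% of the MOLT4 regions. Of the 3635 regions lost in DND41 that were also DMSO-open in MOLT4, 52.3% were lost in MOLT4 too. Of the 16719 regions kept in DND41 and DMSO-open in MOLT4, 5.34% were lost in MOLT4. In the other direction the shares were 53.7% of 3543 lost and 5.50% of 16647 kept regions. These counts are not matched for width.

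Few lost regions lay near each other. The median gap from a lost region to the next was 361 kb, and 69 of the 1901 (3.63%) had another lost region within 10 kb. Of the other DMSO-open regions, 2.75% had a lost region within 10 kb, and the difference was not tested. There were 33 pairs and a single run of 3. That run, on chromosome 8, consisted of chr8:145002428-145003085, chr8:145008139-145008666 and chr8:145013482-145014115. The first had a peak of 238 ± 82.9 bp in every DMSO library and none with ACBI-1 (SD, n = 8). The other 2 had DMSO peaks of 284 ± 56.8 bp and 287 ± 92.7 bp (SD over 6 libraries at each) and kept an ACBI-1 peak in a single DND41 library each, of 528 bp at 3 h and 264 bp at 24 h.

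Their distance to other open sites was close to that of the comparison regions. Another DMSO-open region lay within 10 kb of 27.4% of lost regions and of 27.6% of the others, with median gaps of 25.1 and 23.3 kb. A region with a peak in all 16 libraries lay within 10 kb of 13.8% of lost regions, and of 14.9% of the 8747 other DMSO-open regions that were not themselves in all 16.

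Sites near a lost region had a peak somewhat less often with ACBI-1 than sites farther away. The 571 other DMSO-open regions within 10 kb of a lost region had a peak in 81.3 ± 6.31% with ACBI-1 and in 98.0 ± 1.05% with DMSO. The 20213 farther ones had a peak in 84.5 ± 4.68% with ACBI-1 and in 97.9 ± 1.02% with DMSO (SD, n = 8 each). The near class minus the far class was lower with ACBI-1 than with DMSO by a change of -3.30 points. Sites entered by having a DMSO peak, which holds both classes near the same share with DMSO, so the change is a description with no test. By line it was -0.818 and -3.27 points in DND41 and -3.02 and -6.10 points in MOLT4 at 3 h and 24 h.

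This difference was small and depended on the treatment of width. Near sites were narrower, with a median mean width percentile of 66.9 against 70.7 for far sites. Matched on width the change was -1.48 points, and with lists of equal length it was 0.0483 points. By line the matched change was 0.634 and -1.06 points in DND41 and -1.70 and -3.79 points in MOLT4 at 3 h and 24 h. In DND41 at 3 h it thus had the opposite sign, with 1 of 4 library pairs lower with ACBI-1. At 25 kb and 50 kb, also matched on width, it was -2.53 and -2.12 points.

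Chromosomes contributed unequally. Of the DMSO-open regions on chromosome 19, 2.47% were lost in both lines, 24 of 972, the lowest share of any chromosome. The highest was 12.4% on chromosome 18, 44 of 355, followed by 10.8% on chromosome 13 and 10.7% on chromosome X. The other 19 chromosomes lay between 6.51% and 9.79%. If each width decile had kept its genome-wide share, chromosome 19 would have had 5.46%, chromosome 18 8.65%, chromosome 13 10.1% and chromosome X 7.99%. Chromosome 19 lay below the share its widths gave and the other 3 above it, a description with no test.

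**Figure D5:**
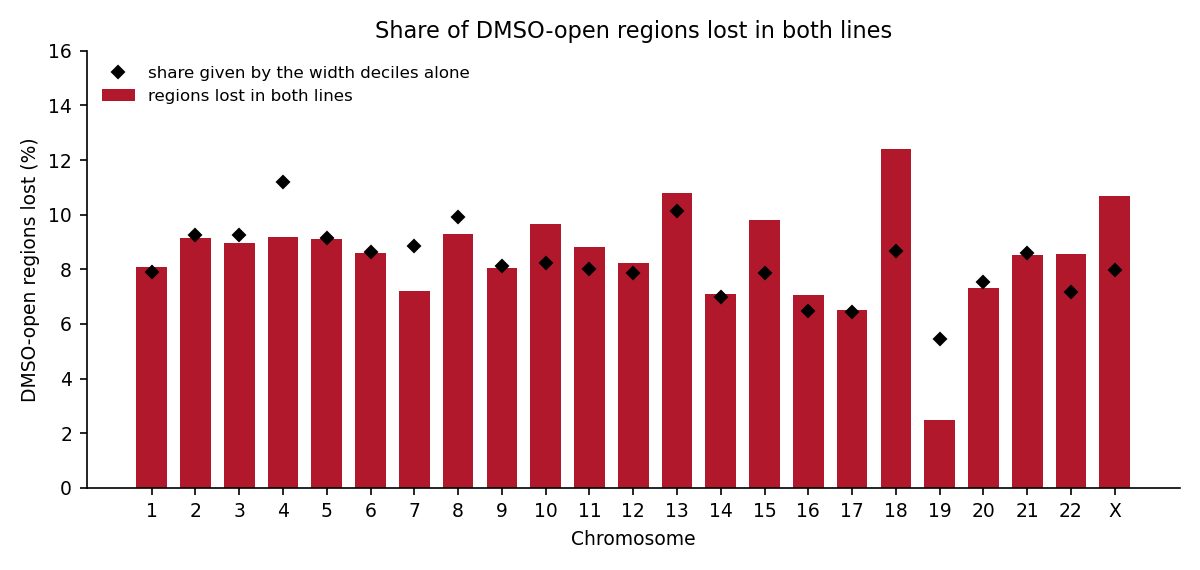
Percent of DMSO-open regions lost in both lines on each chromosome (bars), and the percent that the genome-wide shares of the 10 width deciles would give for its sites (diamonds). Chromosome 19 lies lowest at 2.47%, with 5.46% from width, and chromosome 18 highest at 12.4%, with 8.65% from width.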

How the data were processed

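Tools listed in the submitters' processing notes are MACS2 2.1.1.2016030, SAMtools, Bowtie2 and Picard, with hg19 as build; their roles and settings are not listed. Each deposited list gave chromosome, start, end and name of the peaks of 1 library, and the sources used here give no calling threshold. The authors' values were positions only, which leave depth and height unknown and allow no counting interval. The 1901 regions, the classes and the tests were chosen with earlier results of these data known.

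Presence of a peak was scored per region and library, coordinates were counted from 1, and the broadest peak stood for a region with several. Width percentiles were ranked within each list. Tests were two-sided exact permutation tests over libraries (Python 3.11.15, numpy 2.4.6, pandas 2.3.3, scipy 1.17.1), with Benjamini-Hochberg adjustment over the 13 tests of single values, or over all testable regions, at a threshold of 0.05. For peak presence and DMSO width at lost regions, and for DMSO-open sites near them, the scored libraries took part in the selection. Sites lost or kept in the other line entered by DMSO peaks of the scored line at the other time. All these values are given without their p, though their tests are the 13. The tests were tested on simulated data. Regions named were, by rule, the 10 broadest complete losses, runs of at least 3 within 10 kb, and 3 regions on either side of the threshold.

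The gene and promoter tables at hand are on GRCh38, another build, so no gene, motif or sequence was assigned to a region, and the planned gene and motif lists were not used here.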

Additional observations from a re-analysis of the deposited data

How the results depend on the processing

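The change at sites lost in the other line kept its direction with no width matching, 10 or 40 bins, lists of equal length, a common minimum width and midpoint regions (-39.7 to -32.6 points). The same held without any 1 library (-37.0 to -35.7 points). The number of lost regions was 430 with lists of equal length and 209 with a strict rule of 4 of 4 DMSO and 0 of 4 ACBI-1 libraries, and 2038 to 2597 without 1 library, where the rule allows 1 exception among fewer libraries. It stayed within 1.5 times with a common minimum width (1631), midpoint regions (1949) and merging at 50 shared bases (1912). Calls lower with ACBI-1 over all regions numbered 0 to 1110 without 1 library, where fewer exchanges are possible. This alternative was chosen after seeing the data.

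The change near lost regions was -3.76 to -2.85 points without 1 library. It was -1.48 points when matched on width and turned round with lists of equal length (0.0483 points). Matching at 25 and 50 kb was chosen after seeing the data. The change over time with ACBI-1 was -20.2 to -10.5 points without 1 library, and that with DMSO -9.99 to -3.92 points, but 1.63 points with lists of equal length. Their difference was -13.2 to -3.52 points without 1 library and -23.1 points with lists of equal length. The share of lost regions with a peak, MOLT4 minus DND41, was small at -0.171 points with DMSO and 0.0789 with ACBI-1. It changed sign with a common minimum width, to 0.644 points with DMSO and -0.644 with ACBI-1, and was -0.0385 with ACBI-1 for midpoint regions. Without 1 library it was -3.21 to 2.87 points with DMSO and -4.77 to 4.93 with ACBI-1. The DMSO width percentile changed by -1.26 to 2.71 points for 24 h minus 3 h and -8.87 to -4.91 for MOLT4 minus DND41. The cause of these changes was not tested.

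Whether replicate numbers pair the libraries is not known. ACBI-1 and DMSO deviations of the same number correlated between -0.0408 and 0.00375 in the 4 line and time strata. With 2 libraries per group this cannot show pairing or its absence. The replicate block gave 2260 calls lower with ACBI-1 over all regions. Without read depth or peak height, weak sites cannot be told from closed ones.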
